A study of Mus musculus with 15 samples.

Results

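The endoplasmic reticulum (ER) stress response and the integrated stress response were followed in mouse kidney through 34 genes, chosen by symbol from a list of known pathway members. All 34 were found among the 23866 gene rows of the count table, and all 34 passed the filter on low counts that left 16105 genes for testing. By role, 4 are sensors or their direct effector, 14 are chaperones and folding enzymes, 7 belong to ER-associated degradation (ERAD) and 9 belong to the ATF4-CHOP arm.

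Kidney RNA of male C57BL/6 mice was sequenced, with 1 library per mouse. CCl4+EtOH mice (n = 3) received intraperitoneal carbon tetrachloride (CCl4, a solvent toxic to liver) for 6 weeks and then ethanol (EtOH) for 4 weeks, per their source names. Their titles name CCl4 a second time before EtOH, so whether CCl4 went on during the second course is not settled by the labels. EtOH mice (n = 4) received olive oil, the vehicle, for 6 weeks and then EtOH for 4 weeks. Of the CCl4 mice (n = 4), replicates 1 and 2 had 6 weeks of CCl4, while replicates 3 and 4 had a further 4 weeks at a reduced dose. Olive oil mice (n = 3) had olive oil alone for 6 weeks, so the presence of a second course and the agent given in it cannot be told apart in comparisons with olive oil. The submitters present the series as a model of kidney injury that accompanies alcohol-related fibrosis of the liver. No mutation or transgene is named in the labels.

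Proteins bound for secretion or for membranes are folded in the ER, and unfolded proteins there activate 3 sensors, IRE1 (gene Ern1), PERK (Eif2ak3) and ATF6. IRE1 splices Xbp1 mRNA, and the transcription factors XBP1 and cleaved ATF6 then raise transcription of chaperone and ERAD genes through the ER stress element (ERSE) in their promoters. PERK phosphorylates the initiation factor eIF2alpha, which lowers general translation but favours translation of ATF4. ATF4 in turn drives CHOP (Ddit3) and enzymes of amino acid synthesis, and other kinases can feed into the same step without ER stress. Kidney tubule cells make large amounts of membrane transporters, which are folded in the ER. Counts per gene do not separate spliced from unspliced Xbp1 and do not measure ATF4 protein or phosphorylation.

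Promoter sequences of 250 bases before the annotated start were available for 30 of the 34 genes (32 windows, RefSeq, build GRCm38.p6), and are shown because the ERSE is the element through which chaperone genes are known to be induced. The ERSE was searched on both strands as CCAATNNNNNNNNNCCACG. It was present in 9 of the 32 member windows and in 37 of all 32851 windows (0.113%). The holders were 7 of 12 chaperone genes with a window and 2 of 6 ERAD genes, against 0 of 9 ATF4-CHOP genes and 0 of 3 sensor genes. The sites follow 5′ to 3′ on the strand of the motif, with 8 flanking bases at each end and the fixed letters in capitals. Hsp90b1 has 2 such sites.
Hspa5: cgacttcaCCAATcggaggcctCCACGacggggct
Hsp90b1, farther site: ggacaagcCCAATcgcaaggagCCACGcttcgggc
Hsp90b1, nearer site: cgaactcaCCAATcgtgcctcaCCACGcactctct
Pdia6: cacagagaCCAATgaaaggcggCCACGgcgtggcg
Calr: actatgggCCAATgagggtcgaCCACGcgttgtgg
Canx: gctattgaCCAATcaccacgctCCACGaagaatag
Creld2: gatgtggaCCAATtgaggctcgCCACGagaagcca
Dnajc3: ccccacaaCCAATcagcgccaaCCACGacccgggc
Derl3: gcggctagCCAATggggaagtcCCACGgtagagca
Syvn1: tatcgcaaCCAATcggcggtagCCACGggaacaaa

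Other motifs were rarer among the members. The shorter ERSE-II, ATTGG followed by any 1 base and CCACG, was found in Herpud1 alone among member windows and in 0.0304% of all windows. The composite element that ATF4 binds with C/EBP partners, searched as TGATGNAA, was found in Asns, Chac1 and Herpud1 and in 3.45% of all windows. TGACGTGG, which XBP1 can bind, was in 0 member windows and in 0.563% of all windows. These matches describe letters in a window and were not measured as bound sites.
Herpud1, ERSE-II: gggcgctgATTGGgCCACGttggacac
Herpud1, composite: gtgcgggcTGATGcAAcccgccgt
Asns, composite: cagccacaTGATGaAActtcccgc
Chac1, composite: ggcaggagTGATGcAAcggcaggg

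For the 3 genes whose values are described most closely below, the whole window is given on the strand of the gene, with matches in capitals, to place each element relative to the start at the right end. Hspa5 (ERSE) lies at chr2:34771840-34772089 on the plus strand.
Hspa5: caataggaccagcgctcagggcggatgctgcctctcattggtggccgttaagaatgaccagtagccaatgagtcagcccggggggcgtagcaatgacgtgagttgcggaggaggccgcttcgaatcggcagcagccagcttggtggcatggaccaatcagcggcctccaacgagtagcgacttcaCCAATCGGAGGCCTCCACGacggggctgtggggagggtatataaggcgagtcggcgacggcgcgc
Herpud1 (composite element farther from the start, ERSE-II nearer to it) lies at chr8:94386179-94386428 on the plus strand.
Herpud1: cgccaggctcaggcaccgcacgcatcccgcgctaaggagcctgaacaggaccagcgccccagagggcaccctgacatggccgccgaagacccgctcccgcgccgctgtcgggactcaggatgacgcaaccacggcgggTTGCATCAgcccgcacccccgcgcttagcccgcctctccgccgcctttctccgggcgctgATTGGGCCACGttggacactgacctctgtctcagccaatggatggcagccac
Asns (composite element) lies at chr6:7693210-7693459 on the minus strand.
Asns: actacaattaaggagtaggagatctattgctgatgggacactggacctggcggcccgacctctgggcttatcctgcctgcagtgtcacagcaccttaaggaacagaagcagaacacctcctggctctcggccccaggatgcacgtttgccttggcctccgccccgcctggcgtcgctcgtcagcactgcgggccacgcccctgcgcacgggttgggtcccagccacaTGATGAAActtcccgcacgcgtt

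Libraries held 16.4 to 23.6 M counts, and levels are given as CPM, the count of a gene scaled to the TMM-adjusted total of its library. Kidney origin was checked on 7 proximal tubule markers, which were detected in every library. Their summed level was 5258, 5262 and 14138 CPM in CCl4+EtOH replicates 1, 2 and 3, against 12388 to 15928 CPM in all other libraries, so replicates 1 and 2 stood apart from the rest. Summed levels of 6 macrophage markers were 437, 503 and 351 CPM in CCl4+EtOH mice and 173 to 241 CPM in olive oil mice. Summed levels of 8 adrenal markers were 779, 665 and 1062 CPM in EtOH replicates 1 to 3, against 8.75 CPM in EtOH replicate 4 and at most 23.4 CPM elsewhere. In whole kidney, fewer cells of a type and less RNA per cell cannot be told apart, and the part of these shifts in the values below was not tested unless a value is given.

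**Figure D1:**
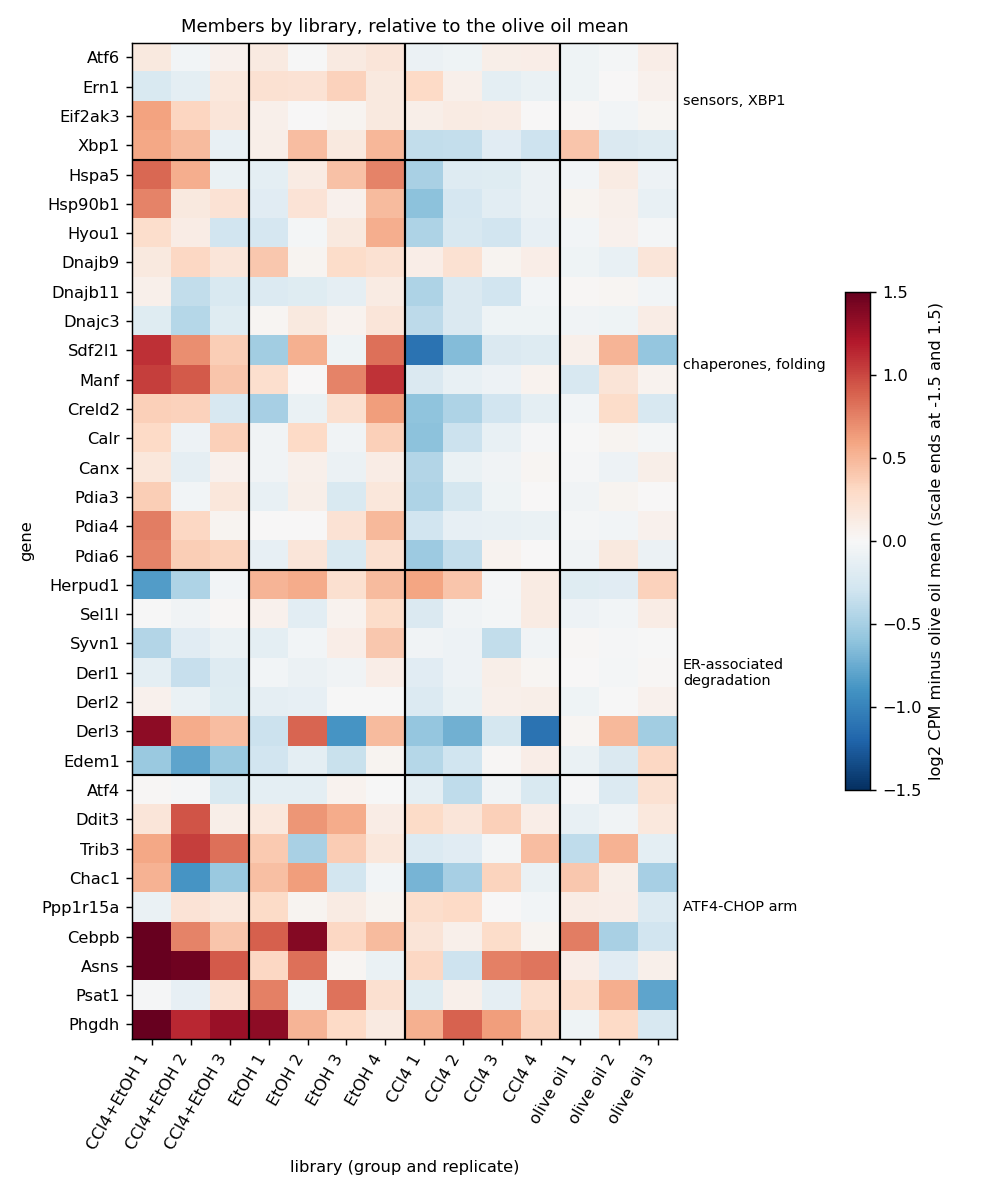
Heat map of log2 CPM relative to the olive oil mean for the 34 genes (down) in 14 libraries (across), with colours capped at 1.5 in either direction and genes ordered by arm. Asns and Phgdh are high in the CCl4+EtOH libraries, and Edem1 is low in all 3 of them. Chaperones other than Dnajb9 are below the olive oil mean in CCl4 replicates 1 and 2, and most are also below it in CCl4 replicate 3.

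In CCl4+EtOH kidneys compared with olive oil kidneys, 5 of the 34 genes rose and 1 fell. The genes that rose were the sensor kinase Eif2ak3, the ER-resident factor Manf, the disulfide isomerase Pdia6, and the enzymes Asns (asparagine synthesis) and Phgdh (first step of serine synthesis). The gene that fell was Edem1, a lectin that passes misfolded glycoproteins to degradation. This was 17.6% of the members, against 35.4% of all genes tested (edgeR quasi-likelihood F test, adjusted p under 0.05 over 16105 genes). By direction, 18.9% of all genes rose and 16.6% fell. The median log2 change was 0.17 over the 34 genes and 0.02 over all genes tested.

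Among the sensors, Eif2ak3 measured 74.0, 60.9 and 55.1 CPM in CCl4+EtOH mice, against 49.0, 47.2 and 49.6 CPM in olive oil mice. Every CCl4+EtOH library lay above every olive oil library, with a log2 change of 0.38 ± 0.09 (SE) and adjusted p = 0.00619. In the fit of these 2 groups alone the adjusted p was 0.0664. EtOH mice measured 48.6 to 53.8 CPM and CCl4 mice 48.9 to 53.0 CPM, both ranges also below the CCl4+EtOH libraries. Against EtOH mice the log2 change was 0.32 ± 0.09 (adjusted p = 0.0122), and against CCl4 mice it was 0.30 ± 0.09 (adjusted p = 0.0154). Without CCl4+EtOH replicate 1, the highest library, these last 2 adjusted p were 0.0767 and 0.0915.

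Xbp1, the IRE1 target, measured 221, 205 and 136 CPM in CCl4+EtOH mice, 157, 203, 163 and 208 CPM in EtOH mice, 114, 115, 131 and 119 CPM in CCl4 mice and 196, 127 and 129 CPM in olive oil mice. Only the CCl4 libraries lay entirely below the CCl4+EtOH libraries. Xbp1 rose in CCl4+EtOH against CCl4 mice by 0.65 ± 0.18 log2 (adjusted p = 0.0128), and the adjusted p was 0.0734 without CCl4+EtOH replicate 1 and 0.0581 without CCl4+EtOH replicate 2. Against olive oil its log2 change was 0.32 ± 0.19 (adjusted p = 0.215). Ern1 averaged 23.7 ± 3.47 CPM in CCl4+EtOH, 29.3 ± 1.73 in EtOH, 25.6 ± 3.65 in CCl4 and 24.9 ± 1.13 in olive oil mice (SD), and Atf6 ranged from 81.0 to 97.0 CPM over all libraries. Atf6 did not pass in any comparison in edgeR or in the alternatives run. Ern1 missed the threshold in every comparison of the main edgeR fit, the 1 model of 14 libraries and 4 groups. Its log2 change was -0.30 ± 0.12 against EtOH (adjusted p = 0.0566). That change passed with RLE factors (0.0487), in the fit of 5 groups (0.0328), in DESeq2 (0.0381) and in limma-voom (0.0103), and without CCl4+EtOH replicate 3 (0.00760) or CCl4 replicate 1 (0.0352).

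Among the chaperones, 2 of 14 rose and 0 fell in CCl4+EtOH against olive oil mice (14.3%, against 35.4% of all genes). A positive log2 change was seen in 12 of 14, and the median change was 0.21. Hspa5 encodes BiP, the main ER chaperone and the protein that holds the sensors inactive. It measured 1174, 942 and 603 CPM in CCl4+EtOH mice, against 628, 702 and 613 CPM in olive oil mice. Replicates 1 and 2 of CCl4+EtOH were above all olive oil libraries and replicate 3 was below them. The log2 change of 0.48 ± 0.24 did not pass in the main edgeR fit (adjusted p = 0.124). Without CCl4+EtOH replicate 3 it was 0.71 (adjusted p = 0.0121), and in limma-voom it was 0.59 (adjusted p = 0.0322).

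Manf, a secreted ER protein that is retained by BiP, measured 101, 93.2 and 65.6 CPM in CCl4+EtOH mice, against 41.4, 56.2 and 50.8 CPM in olive oil mice. The groups did not overlap, and the log2 change was 0.81 ± 0.23 (adjusted p = 0.0175). EtOH mice measured 58.4, 49.4, 82.0 and 104 CPM, a range that spans most of both groups. The adjusted p for Manf was 0.0678 without CCl4+EtOH replicate 1, 0.0555 without CCl4+EtOH replicate 2 and 0.0671 without olive oil replicate 1. With a term for low against high numbers in the mouse titles it was 0.238. All CCl4+EtOH mice have high numbers and all olive oil mice low ones, the labels do not say what the numbers stand for, and in this comparison number and treatment cannot be told apart except through the EtOH and CCl4 mice, which hold both.

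Pdia6, which forms and reshuffles disulfide bonds, measured 376, 289 and 282 CPM in CCl4+EtOH mice, against 216, 247 and 211 CPM in olive oil mice. These groups did not overlap either, and the log2 change was 0.49 ± 0.17 (adjusted p = 0.0404). The call ended without any single library of these 2 groups other than CCl4+EtOH replicate 3. The adjusted p was 0.164 without CCl4+EtOH replicate 1, 0.0520 without CCl4+EtOH replicate 2, and 0.104, 0.0542 and 0.118 without olive oil replicates 1, 2 and 3. It was 0.658 with the title number term, 0.0513 in limma-voom and 0.0686 in the fit of these 2 groups alone.

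Other chaperones did not pass against olive oil in the main edgeR fit. Hsp90b1 (GRP94, which folds client proteins after BiP) measured 1298, 854 and 897 CPM in CCl4+EtOH mice and 795, 816 and 717 CPM in olive oil mice, groups that did not overlap, at adjusted p = 0.13. Dnajc3, an ER co-chaperone of BiP, had a negative log2 change of -0.26 ± 0.11 (adjusted p = 0.0756), and so did Dnajb11, another co-chaperone, at -0.16 ± 0.13 (adjusted p = 0.33). Calnexin (Canx) and Hyou1, an exchange factor for BiP, had log2 changes of 0.04 ± 0.13 and 0.05 ± 0.18. Pdia3, a disulfide isomerase for glycoproteins, had one of 0.18 ± 0.15 (adjusted p = 0.371). Some passed under other settings, among them Dnajc3 in DESeq2 (adjusted p = 0.0329) and limma-voom (0.0377), Dnajb9 in limma-voom (0.0460), and Pdia4 in limma-voom (0.0149) and with upper-quartile factors (0.0398).

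**Figure D2:**
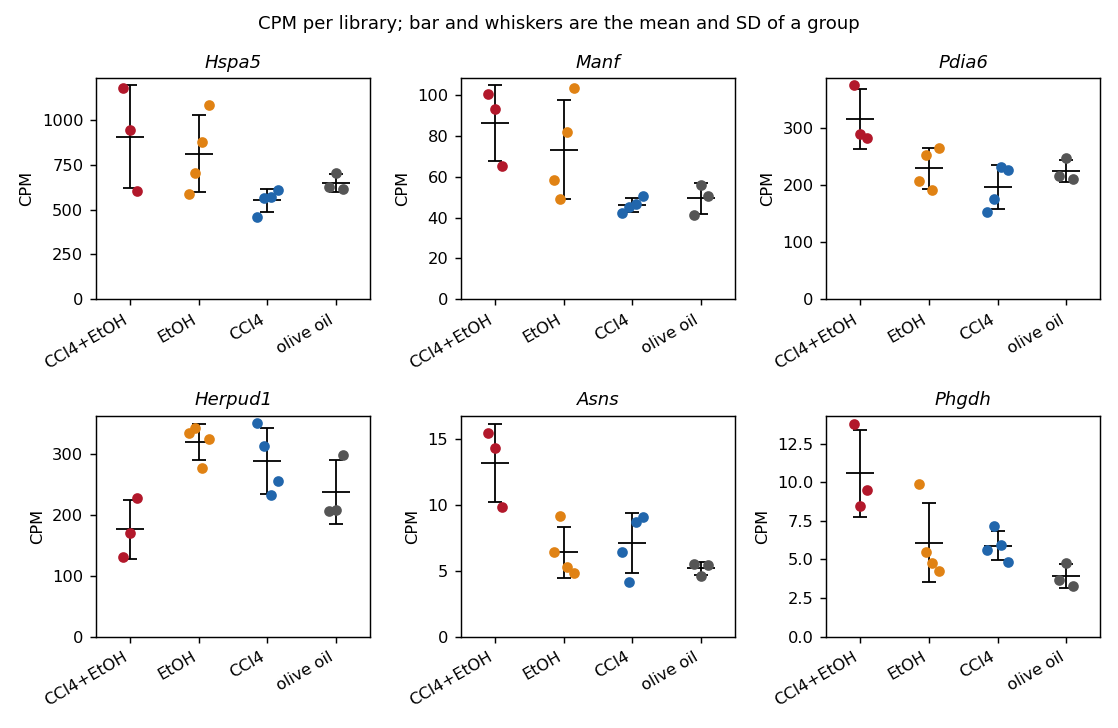
CPM of selected genes in every library, with groups in the order CCl4+EtOH, EtOH, CCl4 and olive oil; points are mice, and bars with whiskers are group means and SD. Hspa5 reaches 1174 CPM in CCl4+EtOH replicate 1 and 1082 CPM in EtOH replicate 4, while Herpud1 is at 131 to 228 CPM in CCl4+EtOH mice and 276.995 to 342 CPM in EtOH mice.

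Of the 7 ERAD genes, 0 rose and 1 fell in CCl4+EtOH against olive oil mice (14.3%, against 35.4% of all genes). A negative log2 change was seen in 6 of 7. Edem1 measured 100, 84.9 and 99.7 CPM in CCl4+EtOH mice, against 137, 126 and 183 CPM in olive oil mice. All CCl4+EtOH libraries were below all olive oil, EtOH and CCl4 libraries. The log2 change was -0.65 ± 0.16 against olive oil (adjusted p = 0.00712), and its call there was kept in all 24 alternatives run. Against EtOH it was -0.45 ± 0.15 (adjusted p = 0.0326) and against CCl4 it was -0.50 ± 0.15 (adjusted p = 0.0215). Leaving out CCl4+EtOH replicate 2 ended both of these calls (adjusted p = 0.133 and 0.0989). The EtOH call also ended without CCl4+EtOH replicate 1 or EtOH replicate 2 or 4 (0.0648, 0.0586 and 0.0890), and the CCl4 call without CCl4 replicate 3 or 4 (0.0542 and 0.0633).

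Herpud1, an ERAD scaffold with both an ERSE-II and a composite element in its window, measured 131, 170 and 228 CPM in CCl4+EtOH mice, 333, 342, 276.995 and 323 CPM in EtOH mice, 351, 312, 232 and 255 CPM in CCl4 mice and 205, 208 and 298 CPM in olive oil mice. CCl4+EtOH libraries lay below every EtOH and every CCl4 library and overlapped with olive oil. Herpud1 fell by 0.86 log2 against EtOH (SE 0.20, adjusted p = 0.00506) and by 0.71 against CCl4 (SE 0.20, adjusted p = 0.0131). Its change against olive oil of -0.43 ± 0.21 did not pass in the main edgeR fit (adjusted p = 0.12). That adjusted p was 0.0434 in limma-voom and 0.0154 without CCl4+EtOH replicate 3. The log2 change was 0.43 ± 0.19 in EtOH against olive oil and 0.28 ± 0.19 in CCl4 against olive oil, neither past the threshold. The CCl4 call ended without CCl4+EtOH replicate 1 or 2 (adjusted p = 0.0727 and 0.0535).

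The remaining ERAD genes did not pass against olive oil in the main edgeR fit. Derl1, which forms part of the channel for misfolded proteins, had a log2 change of -0.22 ± 0.08 (adjusted p = 0.0531, against 0.0234 in DESeq2, 0.0298 in limma-voom and 0.0448 with RLE factors), with 101, 87.8 and 98.3 CPM in CCl4+EtOH mice and 113, 110 and 113 CPM in olive oil mice. Derl3 was low, at 3.85, 2.22 and 2.07 CPM in CCl4+EtOH mice, against 1.52, 2.12 and 1.03 CPM in olive oil mice, and did not pass there (adjusted p = 0.162). Derl3 is also expressed in plasma cells, and 7 plasma and B cell markers summed to 81.1, 52.1 and 87.9 CPM in CCl4+EtOH mice and 33.3 to 34.9 CPM in olive oil mice. Of the 6 markers tested, 1 rose and 0 fell. The marker Sdc1 alone had 41.0, 34.4 and 22.1 CPM in CCl4+EtOH mice and 17.1, 12.8 and 11.8 CPM in olive oil mice. The marker Igj had 33.3, 13.9 and 58.7 CPM, against 14.4, 17.3 and 16.7 CPM, so that CCl4+EtOH replicate 2 was below all olive oil libraries. Cd79a, Cd79b, Ms4a1, Mzb1 and Tnfrsf17 had at most 3.19 CPM in CCl4+EtOH mice and 2.06 CPM in olive oil mice. The sums therefore rest mainly on Sdc1 and Igj. The part of plasma cells in Derl3 was not tested. Sel1l and the ubiquitin ligase Syvn1, which work as a pair, had log2 changes of -0.01 ± 0.11 and -0.22 ± 0.13. Derl2, a relative of Derl1, had one of -0.07 ± 0.09.

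In the ATF4-CHOP arm, 2 of 9 genes rose and 0 fell in CCl4+EtOH against olive oil mice (22.2%, against 35.4% of all genes). The median log2 change was 0.46. Asns measured 15.4, 14.3 and 9.84 CPM in CCl4+EtOH mice, against 5.51, 4.59 and 5.42 CPM in olive oil mice. The groups were fully separate, and the log2 change was 1.35 ± 0.29 (adjusted p = 0.00319, or 0.0915 with the title number term). EtOH mice measured 4.82 to 9.15 CPM and CCl4 mice 4.14 to 9.06 CPM, and Asns rose against both, by 1.04 ± 0.26 (adjusted p = 0.00871) and 0.90 ± 0.26 (adjusted p = 0.0173). The call against CCl4 ended without CCl4+EtOH replicate 1 or 2 (adjusted p = 0.0768 and 0.0633).

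Phgdh measured 13.8, 8.47 and 9.49 CPM in CCl4+EtOH mice, against 3.69, 4.77 and 3.25 CPM in olive oil mice. The groups did not overlap, the log2 change was 1.43 ± 0.30 (adjusted p = 0.00256), and this call too was kept in all 24 alternatives. EtOH replicate 1, at 9.86 CPM, lay among the CCl4+EtOH libraries, and the other EtOH libraries had 4.25 to 5.49 CPM. Phgdh rose by 0.79 ± 0.27 against EtOH (adjusted p = 0.0334) and by 0.84 ± 0.27 against CCl4 (adjusted p = 0.0253). Without CCl4+EtOH replicate 1 these adjusted p were 0.179 and 0.140. The EtOH call also ended without EtOH replicate 2, 3 or 4 (0.0719, 0.0865 and 0.0867), and the CCl4 call without CCl4 replicate 1 or 4 (0.0568 and 0.0672). Psat1, the next enzyme of serine synthesis, did not follow, with 37.6, 34.9 and 44.1 CPM in CCl4+EtOH mice and 45.3, 55.4 and 21.9 CPM in olive oil mice.

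The transcription factors of this arm did not pass in any comparison in the main edgeR fit. Atf4 averaged 79.5 ± 7.09 CPM in CCl4+EtOH, 80.2 ± 5.55 in EtOH, 72.9 ± 6.85 in CCl4 and 84.2 ± 12.9 in olive oil mice (SD, n = 3, 4, 4 and 3). Ddit3, which encodes the pro-apoptotic factor CHOP, measured 10.1, 17.1 and 9.41 CPM in CCl4+EtOH mice, against 8.21, 8.52 and 9.91 CPM in olive oil mice. Its highest library was CCl4+EtOH replicate 2, the groups overlapped, and the log2 change was 0.46 ± 0.21 (adjusted p = 0.106). Cebpb, which encodes a C/EBP partner of ATF4 and CHOP, measured 16.4, 8.35 and 6.60 CPM in CCl4+EtOH mice and 8.44, 3.53 and 4.06 CPM in olive oil mice (adjusted p = 0.0604). Against olive oil, Ddit3 and Cebpb both passed without CCl4+EtOH replicate 3 (adjusted p = 0.0289 and 0.0199) and in limma-voom (0.0219 and 0.0239). Cebpb also passed there in DESeq2 (0.0345) and without EtOH replicate 2 (0.0494) or olive oil replicate 1 (0.0140). Against CCl4, Cebpb had a log2 change of 0.93 ± 0.35 (adjusted p = 0.0546) that passed with upper-quartile factors (0.0477), in DESeq2 (0.0312) and in limma-voom (0.0343).

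The CHOP and ATF4 targets Trib3 (a pseudokinase) and Chac1 (which degrades glutathione) had few counts, averaging 0.960 and 0.784 CPM over all libraries. Trib3 measured 1.19, 1.65 and 1.42 CPM in CCl4+EtOH mice and 0.586, 1.15 and 0.704 CPM in olive oil mice, groups that did not overlap, at adjusted p = 0.0852. Chac1 measured 1.15, 0.403 and 0.518 CPM in CCl4+EtOH mice and 1.06, 0.839 and 0.542 CPM in olive oil mice. Ppp1r15a (GADD34, which helps to dephosphorylate eIF2alpha) lay between 12.1 and 17.2 CPM in all libraries and had a log2 change of 0.09 ± 0.13.

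The number of genes that rose against olive oil depended on single CCl4+EtOH mice. It was 3 without replicate 1, 3 without replicate 2 and 10 without replicate 3, against 5 with all mice, and the number that fell was 4 without replicate 3. The share of all genes called moved with it, to 24%, 24% and 45.2%, against 35.4%. Without CCl4 replicate 1, a mouse of neither group, 2 genes fell. Over all 3 mice, 7 of the 34 genes had every CCl4+EtOH library above every olive oil library and 4 had every one below, where all genes tested had 22.9% above and 20.9% below.

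**Figure D3:**
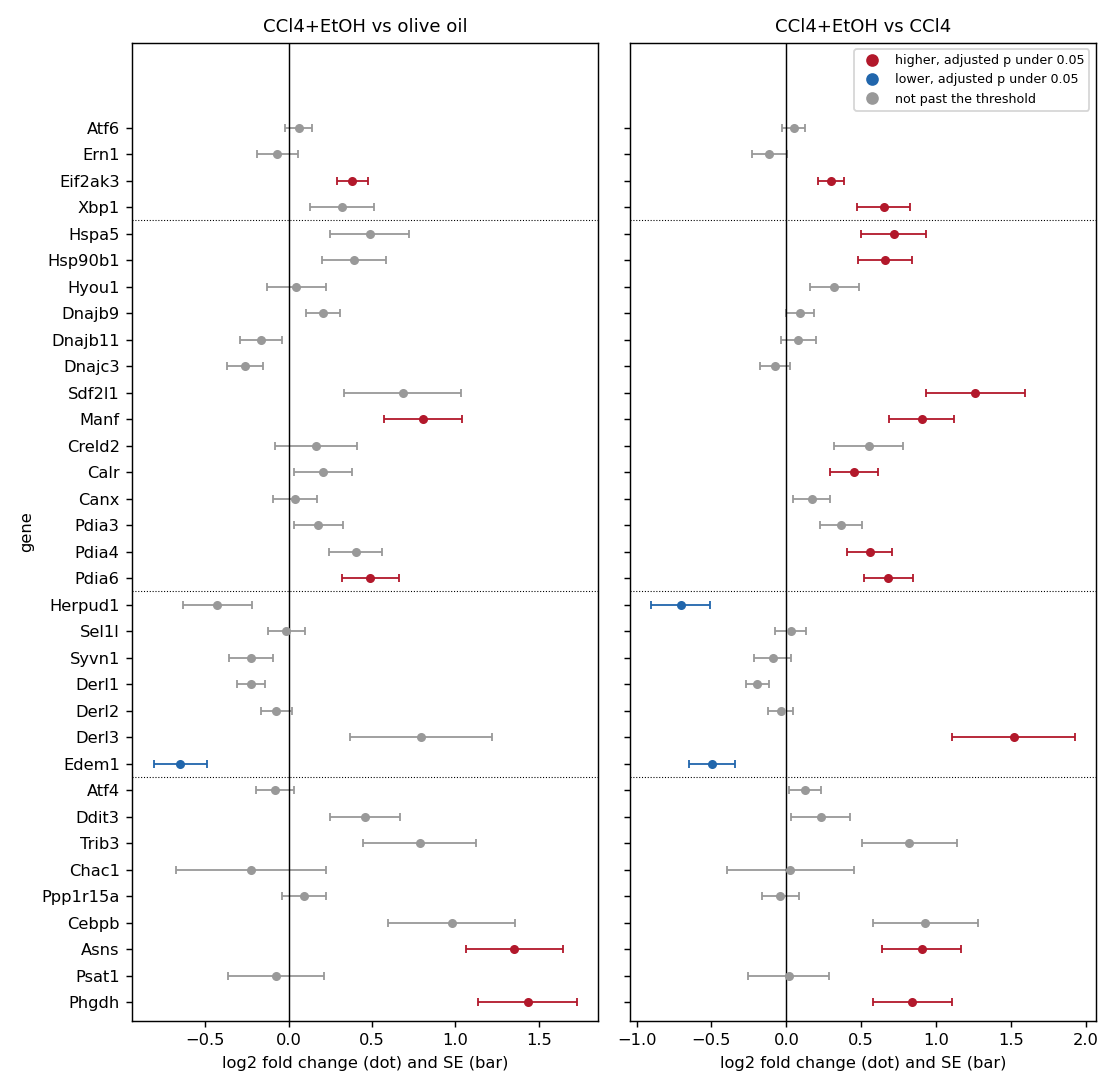
Log2 fold changes (dots) with SE (bars) of the 34 genes in CCl4+EtOH against olive oil and against CCl4, in the order of the arms separated by dotted lines. Red and blue dots are genes past the threshold; 2 chaperones are red against olive oil and 7 are red against CCl4.

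The chaperones were further apart between CCl4+EtOH and CCl4 mice. Here 12 of the 34 genes rose and 2 fell, or 41.2% against 34.8% of all genes, with 18.7% of all genes higher and 16.2% lower. Of the 14 chaperones, 7 rose, namely Hspa5, Hsp90b1, Sdf2l1, Manf, Calr, Pdia4 and Pdia6. Eif2ak3, Xbp1, Derl3, Asns and Phgdh rose too, and Herpud1 and Edem1 fell. In 12 members every CCl4+EtOH library was above every CCl4 library and in 2 every one was below, where all genes tested had 18.1% above and 17% below. The median log2 change over chaperones was 0.50, against 0.02 over all genes.

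Hspa5 measured 461, 567, 571 and 611 CPM in the CCl4 mice, of which the highest overlapped with CCl4+EtOH replicate 3 at 603 CPM, and the log2 change was 0.72 ± 0.22 (adjusted p = 0.0212). Sdf2l1, which works with BiP and its co-chaperones, measured 19.7, 15.001 and 11.9 CPM in CCl4+EtOH mice and 4.25, 5.87, 7.91 and 8.02 CPM in CCl4 mice, a change of 1.26 ± 0.33 (adjusted p = 0.0105). Pdia4, another disulfide isomerase, measured 256, 186 and 155 CPM in CCl4+EtOH mice and 123, 138, 139 and 141 CPM in CCl4 mice, a change of 0.56 ± 0.15 (adjusted p = 0.0107). In Sdf2l1 and Pdia4 the groups did not overlap.

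Calreticulin (Calr), the lectin chaperone for glycoproteins, rose least of the 7, by 0.45 ± 0.16 (adjusted p = 0.0402), with 995, 764 and 1032 CPM in CCl4+EtOH mice and 525, 647, 749 and 797 CPM in CCl4 mice. Manf rose by 0.90 ± 0.22 (adjusted p = 0.00655), Pdia6 by 0.68 ± 0.16 (adjusted p = 0.00542) and Hsp90b1 by 0.66 ± 0.18 (adjusted p = 0.0116). Of the 9 genes with an ERSE, 5 rose and 0 fell here (median log2 change 0.55, from -0.09 to 1.52), while 1 rose and 0 fell against olive oil (median 0.21). Over all genes tested, 18.7% rose here and 18.9% rose against olive oil. ERSE holders that did not pass against CCl4 were Canx, Creld2, Dnajc3 and Syvn1. Of chaperones with a window but no ERSE, Sdf2l1 and Pdia4 rose against CCl4, while Dnajb9, Dnajb11 and Pdia3 did not pass. Manf, which rose, and Hyou1, which did not pass, had no window. Whether the ERSE has a part in these changes was not tested.

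Without CCl4+EtOH replicate 1, 2 genes rose against CCl4, Manf and Pdia6, while 21.3% of all genes were called. The adjusted p without that mouse was 0.127 for Hspa5, 0.0784 for Hsp90b1, 0.0563 for Sdf2l1, 0.123 for Calr, 0.0709 for Pdia4 and 0.0716 for Derl3. Hspa5 also missed the threshold without CCl4+EtOH replicate 2 (0.0640) or CCl4 replicate 1 (0.0593). Calr did so without any of 7 libraries, with the largest adjusted p at 0.123. The number that fell, 2 with all mice, was 1 without CCl4+EtOH replicate 1 or CCl4 replicate 3 or 4, and 0 without CCl4+EtOH replicate 2. With the title number term 7 genes rose, while 28.8% of all genes were called, and the adjusted p was 0.103 for Hspa5, 0.0568 for Hsp90b1 and 0.164 for Calr. Pdia3, at 0.36 ± 0.14 (adjusted p = 0.0555), passed with upper-quartile factors (0.0349), in DESeq2 (0.0301) and in the fit of 5 groups (0.0360).

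The 2 schedules within the CCl4 group bear on this comparison, and the title number term splits the CCl4 mice in the same way. Every CCl4 library entered the values above, but only replicates 3 and 4 were treated for 10 weeks in all, like the CCl4+EtOH mice. Calr, for example, measured 749 and 797 CPM in the 10-week replicates 3 and 4, against 525 and 647 CPM in the 6-week replicates 1 and 2. With only the 10-week CCl4 mice, in a fit of 5 groups, 2 genes rose (Eif2ak3 and Manf) and 2 fell (Edem1 and Derl1), while 23.2% of all genes were called. In that fit the log2 change of Hspa5 was 0.62 (adjusted p = 0.117) and that of Pdia6 was 0.46 (adjusted p = 0.0576).

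CCl4+EtOH mice differed from EtOH mice in 7 of the 34 genes, 20.6% against 34.2% of all genes tested. Eif2ak3, Pdia6, Asns and Phgdh rose, and Herpud1, Edem1 and Dnajc3 fell, where 18.1% of all genes rose and 16.2% fell. In 4 members every CCl4+EtOH library was above every EtOH library and in 4 every one was below, where all genes tested had 17.1% above and 15.3% below. Pdia6 measured 376, 289 and 282 CPM in CCl4+EtOH mice and 207, 253, 191 and 265.1 CPM in EtOH mice, without overlap, with a change of 0.46 ± 0.16 (adjusted p = 0.0391). Its adjusted p was 0.197 without CCl4+EtOH replicate 1, 0.0604 without replicate 2, 0.0919 and 0.104 without EtOH replicates 1 and 3, and 0.0501 without olive oil replicate 1.

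Dnajc3 measured 245, 206 and 244 CPM in CCl4+EtOH mice, against 282, 308, 288 and 315 CPM in EtOH mice, again without overlap, with a change of -0.36 ± 0.10 (adjusted p = 0.0144, or 0.0768 without CCl4+EtOH replicate 2). Hspa5, by contrast, had 586, 704, 875 and 1082 CPM in EtOH mice, a spread that covers most of the CCl4+EtOH values, and its log2 change was 0.16 ± 0.22. Adrenal markers were high in EtOH replicates 1 to 3 alone, so a term for their level largely coincides with the EtOH group. A comparison with EtOH that holds this term leans on EtOH replicate 4, and the 2 cannot be told apart well. With the level of the adrenal markers as a term in the fit, 0 genes rose and 1, Syvn1, fell against EtOH, while 7.34% of all genes were called in place of 34.2%. Syvn1 had a log2 change of -0.67 there (adjusted p = 0.0237) and of -0.32 ± 0.12 without the term (adjusted p = 0.0613). The adjusted p were then 0.0541 for Asns, 0.0714 for Phgdh, 0.254 for Eif2ak3, 0.437 for Pdia6, 0.0580 for Herpud1, 0.0833 for Edem1 and 0.104 for Dnajc3. The number that rose was 1 without CCl4+EtOH replicate 1 and 2 without EtOH replicate 3, and the number that fell was 1 without CCl4+EtOH replicate 2 and 5 without CCl4+EtOH replicate 3.

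Neither single treatment changed a member at the threshold. In EtOH against olive oil mice, 0 of 34 genes passed in edgeR, where 0.168% of all genes did (0.0807% higher and 0.0869% lower), and 4 had an unadjusted p under 0.05 (Dnajb9, Manf, Herpud1 and Phgdh), as did 1679 of all 16105 genes. Ern1 was the 1 member with every EtOH library above every olive oil library, and 0 members had every one below, where all genes tested had 5.2% above and 6.71% below. Manf had a log2 change of 0.57 ± 0.22 and Phgdh one of 0.64 ± 0.28. Hspa5 in the EtOH mice ran from 586 to 1082 CPM, and its highest library, replicate 4, was the EtOH library with adrenal markers at 8.75 CPM. That mouse was also the highest EtOH library for Hsp90b1 (1078 CPM), Hyou1 (258.6 CPM), Creld2 (58.6 CPM) and Manf (104 CPM).

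In CCl4 against olive oil mice, 0 of 34 genes passed, 0% of all genes did, and 0 members had an unadjusted p under 0.05, as 640 genes did overall. DESeq2 called 1 gene and limma-voom 0 genes over the whole table, none of them a member. Of the 14 chaperones, 13 had a negative log2 change, with a median of -0.21, and in 4 of them (Hspa5, Hyou1, Dnajc3 and Pdia4) every CCl4 library was below every olive oil library. Syvn1 was also below in every library and Phgdh above in every library. Over all genes tested, 3.74% were wholly below and 3.47% wholly above. Hspa5 measured 461 to 611 CPM in CCl4 mice and 613 to 702 CPM in olive oil mice, with a log2 change of -0.23 ± 0.22.

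The interaction was the change in CCl4+EtOH over EtOH minus the change in CCl4 over olive oil. It bears on whether EtOH acted differently with and without CCl4 before it, but the schedules differ as well. Olive oil mice and CCl4 replicates 1 and 2 had no second course, and CCl4 replicates 3 and 4 had one of CCl4. EtOH and schedule therefore cannot be told apart in it. Herpud1 was the 1 member of 34 past the threshold in the main edgeR fit, 2.94% against 9.12% of all genes, at -1.13 ± 0.28 log2 (adjusted p = 0.0252). All 4 groups entered this value, in the levels given above. By direction, 5.49% of all genes were positive and 3.63% negative. The adjusted p was 0.149 with the adrenal term, 0.0644 and 0.0715 without CCl4+EtOH replicates 1 and 2, 0.0503 and 0.0502 without CCl4 replicates 1 and 2, and 0.0772 and 0.0680 without olive oil replicates 1 and 2. Pdia6 (0.65 ± 0.23), Sdf2l1 (1.05 ± 0.47) and Derl3 (1.40 ± 0.58) had positive values that did not pass (adjusted p = 0.0817, 0.158 and 0.129). All 3 passed in limma-voom (0.0391, 0.0434 and 0.0295), and Pdia6 also passed in DESeq2 (0.0481).

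Both arms were also averaged within each library, as the mean log2 CPM of the 14 chaperones and of the 9 ATF4-CHOP genes relative to the olive oil mean. The ATF4-CHOP level was 0.70, 0.50 and 0.35 in CCl4+EtOH mice, 0.49, 0.37, 0.25 and 0.12 in EtOH mice, 0.04, 0.02, 0.24 and 0.18 in CCl4 mice and 0.12, 0.07 and -0.19 in olive oil mice. The chaperone level was 0.48, 0.19 and 0.08 in CCl4+EtOH mice, -0.10, 0.10, 0.10 and 0.44 in EtOH mice, -0.47, -0.23, -0.13 and -0.05 in CCl4 mice and -0.04, 0.09 and -0.05 in olive oil mice. All CCl4+EtOH libraries were above all olive oil libraries in the ATF4-CHOP arm, while in the chaperone arm replicate 3 lay within the olive oil range.

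The difference of the arms, chaperone minus ATF4-CHOP, averaged -0.27 ± 0.04 in CCl4+EtOH, -0.17 ± 0.38 in EtOH and -0.34 ± 0.13 in CCl4 mice (SD, n = 3, 4 and 4), on a scale where olive oil mice ranged from -0.15 to 0.14. The difference was negative in every CCl4+EtOH and CCl4 mouse. It was also negative in EtOH replicates 1, 2 and 3 (-0.60, -0.27 and -0.15) and in olive oil replicate 1 (-0.15). The CCl4+EtOH and CCl4 groups reached a negative value by different levels. Both arms were above the olive oil mean in all 3 CCl4+EtOH mice, while chaperones were below it in all 4 CCl4 mice. With the median log2 CPM over members in place of the mean, the chaperone level of CCl4+EtOH mice was 0.33, -0.00087 and -0.039. Replicates 2 and 3 were then no longer above the olive oil mean. That median follows only the genes in middle rank. Of the 14 chaperones, 12 had a positive log2 change in CCl4+EtOH against olive oil mice, with a median change of 0.21. Among EtOH mice, replicate 1 had the lowest chaperone level and the highest ATF4-CHOP level, and replicate 4 had the reverse. The ATF4-CHOP level weights 9 genes equally, and in CCl4+EtOH against olive oil 6 of them had a positive log2 change and 3 a negative one.

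**Figure D4:**
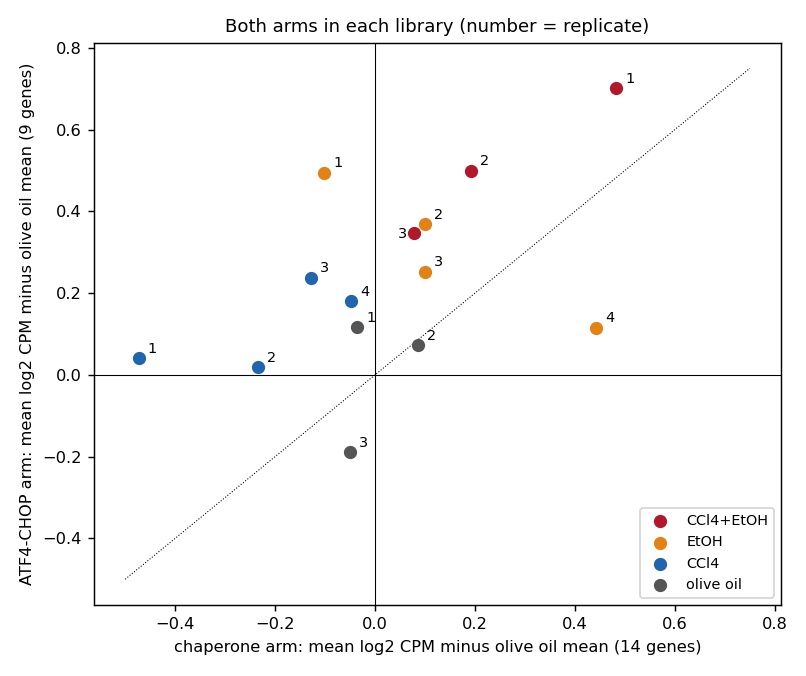
Mean log2 CPM relative to the olive oil mean of 14 chaperones (across) and 9 ATF4-CHOP genes (up), with 1 point per mouse and the dotted line marking equal values. The CCl4+EtOH mice lie at 0.08 to 0.48 across and 0.35 to 0.70 up, and the CCl4 mice at -0.47 to -0.05 across and 0.02 to 0.24 up.

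Spread within groups differed by arm. The median coefficient of variation over chaperones was 17.7% in CCl4+EtOH, 15.9% in EtOH, 13.0% in CCl4 and 6.90% in olive oil mice. For the ATF4-CHOP genes it was 22.5%, 28.2%, 13.96% and 19.99% in the same order of groups. Counting error is largest for Chac1 and Trib3, which had 9 to 41 counts per library.

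Further genes were taken from 2 lists of known pathway members. Of 45 other ER folding and degradation genes measured, 6 rose and 10 fell in CCl4+EtOH against olive oil mice (35.6%, against 35.4% of all genes), with a median log2 change of 0.00. Uggt1, the sensor of glycoprotein folding, rose by 0.34 ± 0.09, and the prolyl isomerases Fkbp10 and Fkbp7 rose by 0.90 ± 0.24 and 0.72 ± 0.22. Dnajc10, an ER disulfide reductase, rose by 0.31 ± 0.09. Sil1, an exchange factor for BiP, fell by 0.66 (SE 0.09), and the ERAD genes Erlec1, Vimp and Edem2 fell by 0.41, 0.31 and 0.30. Edem2 belongs to the same family as Edem1.

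Of 43 other genes of the integrated stress response tested, 16 rose and 5 fell in CCl4+EtOH against olive oil mice (48.8%, against 35.4% of all genes), with a median log2 change of 0.16. Atf3, a transcription factor induced downstream of ATF4 and by other stresses, measured 17.5, 18.3 and 6.26 CPM in CCl4+EtOH mice, against 1.11, 1.99 and 1.41 CPM in olive oil mice, without overlap. It rose by 3.20 ± 0.45 log2 (adjusted p = 0.000320). Stc2, a secreted glycoprotein, rose by 2.18 ± 0.35, Aldh18a1 (proline synthesis) by 1.42 ± 0.25 and Eif2ak2 (PKR, another eIF2alpha kinase) by 0.61 ± 0.12.

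Other enzymes of amino acid metabolism fell. Cbs and Cth, which convert homocysteine to cysteine, fell by 1.91 (SE 0.13) and 0.95 (SE 0.15), and Shmt2, the mitochondrial serine hydroxymethyltransferase, fell by 1.67 (SE 0.25). Shmt2 measured 62.5, 57.3 and 131 CPM in CCl4+EtOH mice, against 230, 260 and 311 CPM in olive oil mice, and its higher CCl4+EtOH library was the mouse with 14138 CPM of proximal tubule markers. Eif2ak1, the heme-regulated eIF2alpha kinase, fell by 0.42 (SE 0.08). In the interaction, 7 of these 43 genes were positive and 3 negative, among them Atf3 at 2.30 ± 0.58 (adjusted p = 0.0300) and Cbs at -1.10 ± 0.17 (adjusted p = 0.00586).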

How the data were processed

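Per the labels' protocols, RNA came from frozen kidneys by a spin-column kit and went into standard Illumina libraries. The values are raw counts per gene symbol, deposited by the authors without normalization. Alignment with GSNAP to mm9 is named per the submitters' processing notes, with no version. Neither the counter nor its annotation and strand setting is given in the sources used here. Reads of overlapping genes on opposite strands may therefore be mixed. The table held 14 columns for 15 samples, and the fourth olive oil mouse was not analysed here. Of 23893 rows, 27 carried a date in place of a symbol and were left out, at most 0.209% of a library's counts. No 2 libraries of a group agreed within sampling noise (chi-square per gene of at least 10.3).

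Counts were fitted with edgeR 4.0.16 in R 4.3.3 (filterByExpr, TMM factors, robust quasi-likelihood F test) in 1 model of 14 libraries and 4 groups, with Benjamini-Hochberg adjustment over 16105 genes and a threshold of 0.05. All adjusted p are from that test unless another tool is named. SE was approximated as the absolute log2 change over the root of F. Log2 CPM used a prior count of 1. The labels name mice by numbers only, so p-values measure the spread between libraries. All members are named, with up to 4 genes in each direction, by smallest p, from each further pathway list. Members and lists were chosen with earlier results of these data known. Promoter windows and coordinates are of GRCm38.p6, not of the build of the counts. For 29 of the 32 windows, 25 bases taken downstream of the start lay in a transcript of the gene, which does not place the start itself. The fit was tested on simulated data with 200 changed genes in each 2-group comparison. It called 25.4% to 38.1% of 1.5-fold changes and 63.8% to 72.5% of 2-fold changes, depending on the comparison. Of its calls, 3.73% to 6.02% were false. Alternatives were other scaling factors, DESeq2 1.42.0, limma-voom 3.58.1, other filters, 5 groups, an adrenal term, a term for low against high title numbers (whose meaning the labels do not give), only the groups compared and leaving out each mouse. The 10-week CCl4 fit was added after seeing the data.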

Additional observations from a re-analysis of the deposited data

Results flagged for a closer look

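In the groups of 4 mice, the gap of the highest or lowest library to its neighbour was compared with the group's range for 68 combinations of gene and group, of which 2 exceeded Dixon's critical value. Chance passes about 5% of groups. Pdia4 was 123.194 CPM in CCl4 replicate 1, apart from 138.274 to 140.582 CPM in the other CCl4 mice. Syvn1 was 50.7807 CPM in CCl4 replicate 3, apart from 61.9592 to 63.2103 CPM in the other CCl4 mice. The interaction of Herpud1, -1.13408 log2 (SE 0.28, adjusted p = 0.0252), passed the test that the change in CCl4+EtOH over EtOH differs from that in CCl4 over olive oil.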

How the results depend on the processing

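Of the counts of members and the arm levels, 119 of 147 values under other settings stayed within 1.5 times or 1 SD of the reported value and 28 moved. Genes that fell against olive oil numbered 2 with RLE factors, 3 with DESeq2, 4 with limma-voom, 2 with 5 groups and 3 with the title number term, against 1. Genes that rose numbered 9 with limma-voom, 2 with the title number term and 3 with only the groups compared, against 5. Against EtOH, 6 fell with DESeq2, 6 with limma-voom, 5 with 5 groups and 1 with the adrenal term, against 3, while 0 rose with the adrenal term and 1 with only the groups compared, against 4. Against CCl4, 7 rose with the title number term and 2 with the 10-week CCl4 mice only, against 12. In the interaction, 1 rose with DESeq2, 3 with limma-voom, 1 with 5 groups and 2 with the title number term, against 0, and 2 fell with limma-voom and 0 with the adrenal term, against 1. The cause was not tested.

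Taken as the median log2 CPM over members, relative to olive oil, the ATF4-CHOP level was 1.04 in CCl4+EtOH, 0.52 in EtOH and 0.38 in CCl4 mice. The difference of the arms was then -0.95 in CCl4+EtOH and -0.62 in CCl4 mice. This median is the level of the gene in middle rank, which can be a different gene in each library. It is not a median of changes, which for the ATF4-CHOP genes was 0.46, 0.31 and 0.05 log2 in the same order of groups. Olive oil mice spread widely when the median level was used. Their ATF4-CHOP level was 0.46, -0.32 and -0.14, and their difference of the arms was -0.50, 0.42 and 0.08. With the mean and without members under 1 CPM, the difference of the arms in CCl4+EtOH mice was -0.34. Leaving out 1 mouse at a time, genes that rose ranged from 3 to 10 against olive oil, 1 to 5 against EtOH, 2 to 14 against CCl4 and 0 to 3 in the interaction. Genes that fell ranged from 1 to 4, 1 to 5, 0 to 3 and 0 to 2 in the same order. Pdia4 against EtOH, called only without CCl4+EtOH replicate 3, had a log2 change of -0.055 with the adrenal term and -0.0080 to 0.36 when a mouse was left out, against 0.21. A filter of 5 CPM in 3 libraries left 31 members, without Derl3, Trib3 and Chac1. The interaction has no fit of fewer groups. No paired analysis was possible because the labels give the groups no shared replicate numbers. With 3 or 4 mice a group, a p that misses the threshold does not show equal levels.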
